A study of Homo sapiens with 6 samples.

Results

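The ABC genes encode the ATP-binding cassette proteins, most of them membrane pumps that use ATP to move drugs, conjugates, lipids, peptides or metal-containing cofactors. The members were taken by name, as the gene names of the deposited count table made of ABC, a subfamily letter from A to G and a number. This gave 46 of 60835 unique gene names, of which 27 had enough reads to be tested and 19 did not. RefSeq lists 1 of them, ABCC13, as a transcribed pseudogene.

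The RNA came from SW620, a long-established line of human colon cancer cells. In 1 set the cells carried a control vector (shControl, 3 libraries), and in the other a stable knockdown of DNM1, the gene of the membrane-pinching GTPase dynamin 1 (shDNM1, 3 libraries). The medium for both sets was high-glucose DMEM with fetal bovine serum, and the genotype of the shControl set is labelled WT. The study asked which genes differ in mRNA level between the sets. The labels assign every shControl library to batch_A and every shDNM1 library to batch_B, so in each comparison here the effect of the vector and that of the batch cannot be told apart. No label names separate cultures, so p-values here gauge library-to-library scatter alone, possibly technical. The labels also leave unsaid whether the knockdown cells were a pool or 1 clone.

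Library totals ran from 12844534 to 13537519 counts. DNM1 itself stood at 127, 127 and 133 CPM in the shControl libraries and at 126, 97.8 and 125 CPM in those labelled shDNM1. CPM here means edgeR's counts relative to library size, with TMM scaling of the libraries. Its log2 fold change of -0.15 (SE 0.083) did not pass the test (adjusted p = 0.189), and only without shDNM1 replicate 1 did it do so (adjusted p = 0.0399). A direction below is therefore one between the labelled sets, with no measured loss of DNM1 mRNA of clear size behind it. Of the colon epithelial markers KRT8, KRT18, KRT19, VIL1 and EPCAM were abundant, whereas KRT20, CDH17 and LGALS4 had 58 to 102 counts over all libraries. CDX2, an intestinal transcription factor, was 2.47-fold higher in shDNM1 (adjusted p = 1.66e-06). KRT8, KRT18 and KRT19 were 1.20-fold, 1.23-fold and 1.24-fold higher, EPCAM fell to 0.886 of control (adjusted p = 0.0288, lost without shControl replicate 3 or shDNM1 replicate 3), and VIL1 did not pass. Of the markers of other cell types, PTPRC, CD3E, KDR, CDH5, DCN and COL1A2 had 0 to 6 counts in all, with CD3E and KDR at 0. PDGFRB and LUM of the fibroblast list and VWF of the endothelial list rose, and LYZ of the leukocyte list fell. The VWF call lay at the threshold (adjusted p = 0.0490), and its sets overlapped. COL1A1 of the fibroblast list and PECAM1 of the endothelial list, with 902 and 1024 counts in all, did not pass. Their log2 fold changes were 0.10 and -0.02. The summed TPM of the markers was 28.6 to 36.1 against 36.2 to 54.3 for fibroblasts (shControl against shDNM1), 8.18 to 9.85 against 3.48 to 4.77 for leukocytes and 7.20 to 8.35 against 6.82 to 9.06 for endothelium. Their part in the results was not tested.

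An ABC transporter is built from membrane-spanning domains, which form the path of the substrate, and nucleotide-binding domains, which bind ATP and drive the cycle. In colon epithelium and its tumours the efflux members are known for carrying drugs and glutathione or glucuronide conjugates out of cells. Lipid members move sterols and phospholipids, mitochondrial members serve iron-sulfur and heme metabolism, and the ABCE and ABCF proteins have no membrane domain and act in translation.

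In the libraries labelled shDNM1, 9 members rose and 3 fell out of 27 tested, and the other 15 missed the threshold. Among the 9 were ABCG1, ABCA7, ABCF3, ABCF2, ABCF1, ABCB1, ABCE1 and ABCA2, and among the 3 were ABCC6 and ABCC3. The test was edgeR's two-sided quasi-likelihood F test with Benjamini-Hochberg adjustment over 16744 genes, at an adjusted p of 0.05. Over all genes tested 31.9% were called, 15.6% higher and 16.2% lower. Among the members these shares were 44.4%, 33.3% and 11.1%. The median log2 fold change of the tested members was 0.16, against -0.01 over all genes tested. The CPM of the 2 sets did not overlap for 18 members (66.7%), against 44.3% of all genes tested. In bulk RNA, a shift in the makeup of the cells and a change within each cell cannot be told apart. The counts depended on single libraries. Without shControl replicate 3 there were 7 calls, 5 of them higher, and without shDNM1 replicate 3 only 1 member, ABCC3, fell. Taken from the deposited TPM on the log2(TPM + 1) scale, 5 members were higher and 4 lower, and the whole table then had 1801 genes higher and 2846 lower in place of 2617 and 2720. Only 6 of the 12 calls, among them ABCC3, ABCA7, ABCG1, ABCF1 and ABCF3, held under each of the 17 alternatives run at this threshold.

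**Figure D1:**
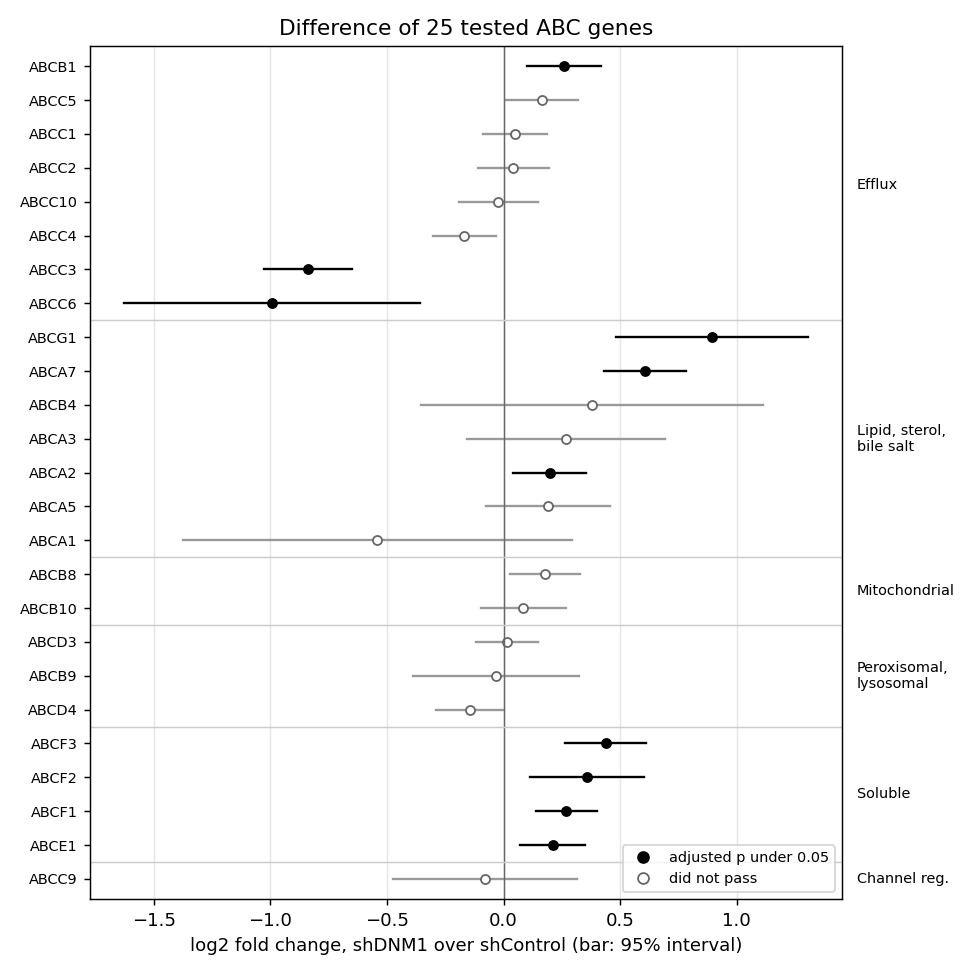
Log2 fold change of 25 tested ABC genes (x axis, shDNM1 over shControl) with its 95% interval from the fit, grouped by role. Filled points passed an adjusted p of 0.05: 8 of these lie to the right of 0 and 2, ABCC3 and ABCC6, to the left.

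Levels of different genes were compared as TPM, which allows for gene length. Over all libraries the tested members ran from 0.239 TPM for ABCA1 to 126 TPM for ABCF1. The soluble ABCF1 and ABCE1 stood highest, at 117 ± 2.94 and 113 ± 5.31 TPM in shControl (SD, n = 3), and their order was not separated by that spread. The peroxisomal and lysosomal ABCD4 and ABCD3 followed at 79.3 ± 1.42 and 73.1 ± 3.96 TPM. The highest efflux members were ABCC1 at 56.1 ± 1.08 TPM and ABCC4 at 52.9 ± 2.12 TPM. The lipid members were lower as a group, with ABCA7 first at 23.8 ± 0.634 TPM. Summed over a role, the 4 soluble members held 283 to 286 TPM in shControl and 317 to 340.4 TPM in shDNM1, and the sets did not overlap. The 12 efflux members summed to 260.1 to 272 TPM against 238 to 255 TPM, lower in each shDNM1 library. Summed as CPM the efflux sets overlapped, at 504 to 520.1 in shControl and 488 to 509 in shDNM1. The 18 lipid members, 11 of them untested, went the other way, from 61.5 to 64.7 TPM against 67.7 to 87.2 TPM. Of these sums ABCA7 alone held 23.1 to 24.2 TPM in shControl and 29.0 to 38.5 TPM in shDNM1. The gap between the lipid sums therefore leans on ABCA7 and does not show a shift across the role. Neither the soluble nor the lipid sets overlapped as summed CPM. For the soluble role this had to follow, since each of its 4 members was higher in every shDNM1 library, so the sum adds nothing to them. Among all genes tested 44.3% had sets that did not overlap.

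**Figure D2:**
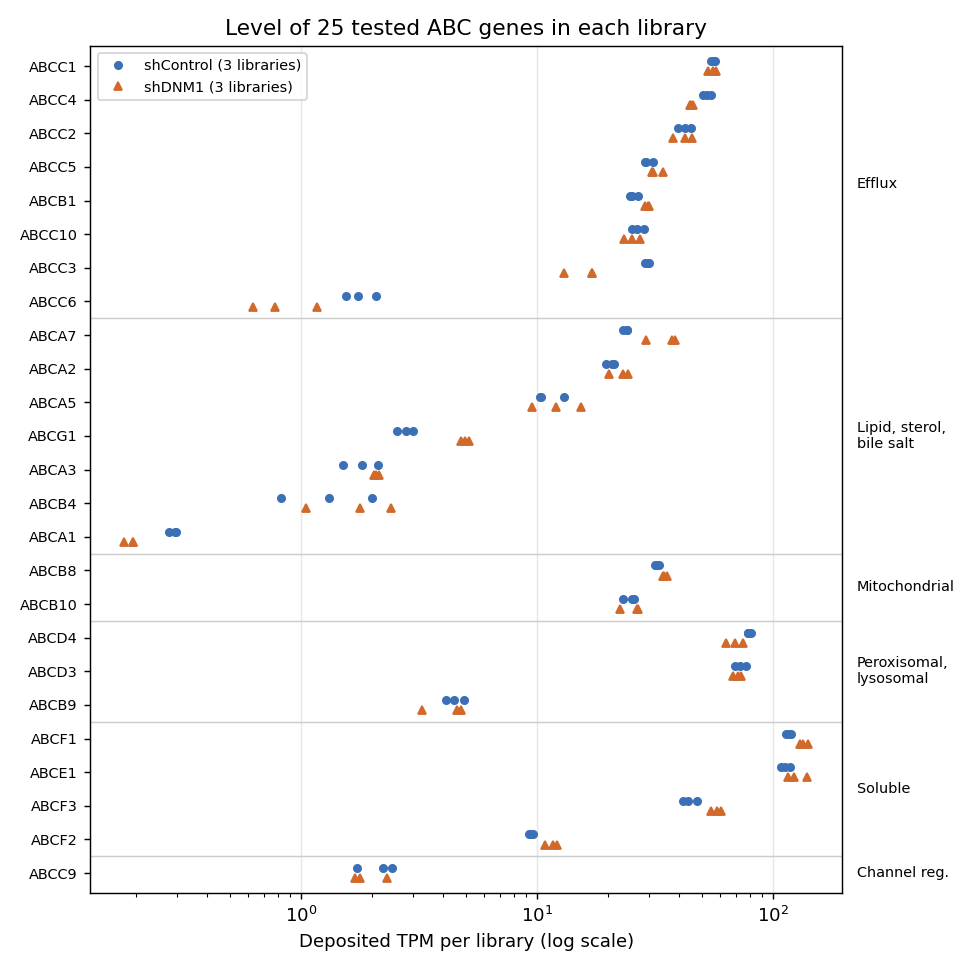
Deposited TPM of 25 tested ABC genes in each library (x axis, log scale), with shControl as circles and shDNM1 as triangles, grouped by role. Soluble ABCF1 and ABCE1 lie highest and ABCA1 lowest, and ABCC3 shows a clear gap between the sets.

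The drug and conjugate efflux members split. ABCC3 and ABCC6 fell, ABCB1 rose, and 5 of the 8 tested did not pass. Over all genes tested 31.9% were called, 15.6% higher and 16.2% lower, so counts this small do not set the efflux members apart. ABCC3, which exports glucuronide conjugates and bile salts across the basolateral membrane (chromosome 17, 50634777 to 50692253 in the deposited table, build GRCh38), measured 53.0, 56.4 and 55.3 CPM in shControl and 32.7, 26.4 and 33.0 CPM in shDNM1. All shDNM1 libraries were far under all shControl libraries, with shDNM1 replicate 2 the lowest. The mean was 54.9 ± 1.76 CPM in shControl and 30.7 ± 3.73 CPM in shDNM1 (SD, n = 3), 0.560 of control with a 95% interval from 0.491 to 0.638 (log2 fold change -0.84, SE 0.090, adjusted p = 1.36e-06). This was the smallest p of any member.

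ABCB1, the P-glycoprotein that pumps many hydrophobic drugs out of cells (chromosome 7, 87503017 to 87713323), measured 45.2, 43.9 and 42.5 CPM in shControl and 51.5, 55.2 and 50.5 CPM in shDNM1. The sets did not overlap, but the gap between the nearest libraries was small. It was 1.20-fold higher (95% interval 1.07 to 1.33, adjusted p = 0.0139), a call lost without shControl replicate 3 (adjusted p = 0.0842) and on both TPM scales (adjusted p = 0.0762 and 0.0733).

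ABCC6, which in liver supports ATP release, was low. It had 34, 41 and 46 counts in shControl and 14, 27 and 18 in shDNM1, and each shDNM1 library was under each shControl library. Its log2 fold change was -0.99 (SE 0.301, adjusted p = 0.0169). That call ended without shControl replicate 3 (adjusted p = 0.0835), shDNM1 replicate 1 (0.0545) or shDNM1 replicate 3 (0.0611). It held on the log2(TPM + 1) scale, where the log2 fold change was -0.59. On that scale the added 1 shrinks differences between low values. ABCC6 has near-identical pseudogene copies on the same chromosome, ABCC6P1 and ABCC6P2, listed with 22 and 29 counts over all libraries, and how reads were divided among them is not given in the sources used here.

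The multidrug resistance gene ABCC1, the highest efflux member by TPM, measured 120.2, 125 and 119 CPM in shControl and 118, 131 and 128 CPM in shDNM1. The sets overlapped, and the 95% interval of its fold change was 0.94 to 1.14. ABCC2, the apical conjugate pump, and ABCC10 overlapped too, with intervals of 0.927 to 1.14 and 0.876 to 1.11. ABCC4, which exports cyclic nucleotides and prostaglandins, had 107 ± 3.72 CPM in shControl and 95.3 ± 2.86 CPM in shDNM1 with no overlap, and narrowly missed the threshold (log2 fold change -0.17, adjusted p = 0.0549). It passed under 6 of the 17 alternatives, among them upper quartile scaling (0.0304), a replicate block (0.0355) and the omission of shDNM1 replicate 2 (0.0479). ABCC5, a nucleotide analogue and cyclic nucleotide exporter, had 57.0 ± 1.59 and 63.9 ± 3.59 CPM, with an adjusted p of 0.0932. It passed without shDNM1 replicate 1 (0.031). ABCG2, the breast cancer resistance protein and a well-known intestinal drug pump, had only 1 to 4 counts in a library.

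The lipid, sterol and bile salt members that passed all rose: 3 of 7 tested, with 0 lower and 4 not passed. Over all genes tested 15.6% were higher and 16.2% lower. Of the 3 calls, that of ABCA2 was lost under 12 of 17 alternatives. ABCG1, which moves cholesterol to lipoprotein particles (chromosome 21, 42199689 to 42297244), measured 3.14, 3.46 and 2.93 CPM in shControl and 5.75, 6.38 and 5.63 CPM in shDNM1. The shDNM1 libraries clustered well above the others, in this low-level gene with 38 to 80 counts in a library. It was 1.86-fold higher (95% interval 1.40 to 2.47, log2 fold change 0.89, SE 0.196, adjusted p = 0.00181), the largest rise of any tested member.

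ABCA7, a phospholipid transporter (chromosome 19, 1039997 to 1065572), measured 53.9, 55.5 and 52.3 CPM in shControl and 85.9, 70.5 and 89.5 CPM in shDNM1. All shDNM1 libraries were higher, with replicate 2 nearest to the controls. The log2 fold change was 0.61 (SE 0.084, adjusted p = 2.46e-05), and it was 0.52 to 0.70 over the alternatives. ABCA2, an endosomal and lysosomal lipid transporter, had 54.8, 53.5 and 56.8 CPM against 66.5, 58.7 and 64.2 CPM. Its 1.15-fold difference lay at the threshold (adjusted p = 0.0492) and was lost under 12 of 17 alternatives, where the adjusted p ranged from 0.0187 to 0.331 over all 17. These 12 included leaving out shControl replicate 1, 2 or 3 (0.119, 0.169 and 0.0993) and shDNM1 replicate 1 or 3 (0.102 and 0.121).

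ABCA1, the cholesterol and phospholipid exporter that loads apolipoprotein A-I, was scarcely expressed, with 13 counts in each shControl library and 8, 9 and 9 in shDNM1. The sets did not overlap, but it did not pass (adjusted p = 0.326). Its log2 fold change was -0.54 with a 95% interval from -1.37 to 0.29. At this depth the interval spans a large fall, no change and a small rise. ABCA5, ABCA3 and ABCB4, the phosphatidylcholine floppase of bile, had log2 fold changes of 0.19, 0.27 and 0.38 and did not pass. These values hung on single libraries. For ABCB4 it was 0.12 without shControl replicate 1, 0.76 without shControl replicate 2, 0.62 without shDNM1 replicate 2 and 0.085 without shDNM1 replicate 3, and for ABCA3 0.16 without shControl replicate 2. For ABCA5 it was 0.02 without shDNM1 replicate 1 and 0.32 without shDNM1 replicate 2, where it passed (adjusted p = 0.0455). ABCA10 overlaps ABCA5 on the same strand in the deposited coordinates, so its few reads are uncertain.

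Of the mitochondrial members, ABCB8 and ABCB10 did not pass. ABCB8, part of a mitochondrial potassium and iron handling complex, had 49.1 ± 0.712 CPM in shControl and 55.5 ± 1.40 CPM in shDNM1 (log2 fold change interval 0.03 to 0.33, adjusted p = 0.0682), with no overlap. It passed without shDNM1 replicate 1 (0.0417) and with a minimum of 1 CPM in 3 libraries (0.0467). ABCB10, which supports heme synthesis, had 31.6 ± 1.51 and 33.5 ± 2.13 CPM, overlapping sets and a fold interval from 0.934 to 1.20. ABCB6, a porphyrin transporter, had 5 to 12 counts in a library and was not tested.

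Of the peroxisomal and lysosomal members, ABCD3, ABCD4 and ABCB9 did not pass. ABCD3, the most abundant peroxisomal member, had 109, 101 and 104 CPM against 107, 105 and 105 CPM, a fold change of 1.01 with an interval from 0.92 to 1.11. ABCD4, which handles cobalamin at the lysosome, had 79.0 ± 2.40 and 71.6 ± 4.01 CPM without overlap and did not pass (adjusted p = 0.131), though it did without shDNM1 replicate 1 (0.0395). ABCB9, a lysosomal peptide transporter, overlapped between the sets.

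All 4 soluble members rose. ABCE1 recycles ribosomes after termination, and ABCF1, ABCF2 and ABCF3 are cytosolic proteins of translation and its control. These 4 were picked for display because all were called higher. The 250 bases before the RefSeq start of each gene are shown, 5′ to 3′ on build GRCh38.p14. Capitals mark the motifs found by letter search on both strands: E-box CACGTG, GC box GGGCGG and CCAAT box CCAAT, with TATAAA also searched.
ABCE1, chr4:145098061-145098310, plus strand: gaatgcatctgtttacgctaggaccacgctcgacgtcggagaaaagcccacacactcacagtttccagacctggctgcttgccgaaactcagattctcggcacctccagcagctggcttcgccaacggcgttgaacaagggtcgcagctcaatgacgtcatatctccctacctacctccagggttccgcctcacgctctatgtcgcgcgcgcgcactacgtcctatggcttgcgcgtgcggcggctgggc
ABCF1, chr6:30571192-30571441, plus strand: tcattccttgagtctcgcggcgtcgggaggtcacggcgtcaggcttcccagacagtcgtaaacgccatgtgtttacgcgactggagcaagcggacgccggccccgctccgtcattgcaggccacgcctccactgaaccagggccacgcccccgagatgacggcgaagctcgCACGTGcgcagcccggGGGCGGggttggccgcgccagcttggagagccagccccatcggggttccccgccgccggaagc
ABCF2, chr7:151227206-151227455, minus strand: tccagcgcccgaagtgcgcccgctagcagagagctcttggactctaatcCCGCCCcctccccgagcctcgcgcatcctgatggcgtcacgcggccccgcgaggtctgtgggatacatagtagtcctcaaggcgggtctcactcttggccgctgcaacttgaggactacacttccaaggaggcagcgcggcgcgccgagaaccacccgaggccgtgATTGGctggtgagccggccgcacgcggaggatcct
ABCF3, chr3:184185949-184186198, plus strand: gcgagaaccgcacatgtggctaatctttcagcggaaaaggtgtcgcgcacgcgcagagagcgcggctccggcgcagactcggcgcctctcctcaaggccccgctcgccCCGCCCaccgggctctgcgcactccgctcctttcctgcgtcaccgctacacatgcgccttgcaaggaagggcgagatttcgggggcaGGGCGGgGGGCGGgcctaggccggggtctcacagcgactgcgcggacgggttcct
ABCF1 held an E-box from base -79 to -74 before its start and a GC box from -63 to -58. ABCF2 held a GC box from -201 to -196 and a CCAAT box, as ATTGG, from -35 to -31. ABCF3 held 3 GC boxes, and the ABCE1 window held none of these letters. In the deposited coordinates ABCE1, ABCF1 and ABCF3 start inside their windows, at 145098288, 30571393 and 184186095. The ABCF3 GC boxes that begin at -55 and -48 lie past that deposited start. None of the searched motifs occurred in all 4 windows. So short a list of motifs cannot show whether the genes share regulation, which was not tested. Of the 35116 RefSeq windows of the same length 6.34% held CACGTG, 42.6% GGGCGG, 10.7% TATAAA and 11240 windows CCAAT, on either strand. RefSeq promoters were matched for 35 of the 46 members.

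ABCF3 (chromosome 3, 184186095 to 184194012) measured 40.4, 45.3 and 39.1 CPM in shControl and 52.3, 58.7 and 58.0 CPM in shDNM1. Its sets were well apart, and it was 1.35-fold higher (95% interval 1.20 to 1.53, log2 fold change 0.44, SE 0.082, adjusted p = 0.000476). ABCF1 (chromosome 6, 30571393 to 30597179), the most abundant member by TPM, measured 126, 134 and 135 CPM against 154, 158 and 163 CPM. It was 1.20-fold higher with no overlap (adjusted p = 0.00266).

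ABCF2 (chromosome 7, 151211484 to 151227205) measured 14.2, 13.9 and 13.9 CPM against 16.4, 19.6 and 17.9 CPM. The control values were very close together and all lay under the shDNM1 values. It was 1.28-fold higher (adjusted p = 0.0241). The call was lost in turn without shControl replicate 1, 2 or 3 (0.0526, 0.0638 and 0.0782), shDNM1 replicate 2 or 3 (0.0861 and 0.0504) and on both TPM scales (0.101 and 0.0944). A read-through gene, ABCF2-H2BK1, overlaps ABCF2 on the same strand and is listed at 0 counts in every library. ABCE1 (chromosome 4, 145098288 to 145129524) measured 149.6, 139.9 and 145 CPM against 181, 160.0 and 161 CPM, higher in each shDNM1 library and most so in replicate 1. It was 1.16-fold higher (adjusted p = 0.0208), but not without shControl replicate 2 or 3 (0.101 and 0.0864), with library size alone as the scale (0.0585) or on the TPM scales (0.162 and 0.165). ABCE1 overlaps OTUD4 on the opposite strand in the deposited coordinates. OTUD4 itself rose (log2 fold change 0.33, adjusted p = 0.00379), and whether counting used strand is not given in the sources used here. Of the 4 soluble calls 2 remained without shControl replicate 2 and 2 without shControl replicate 3.

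**Figure D3:**
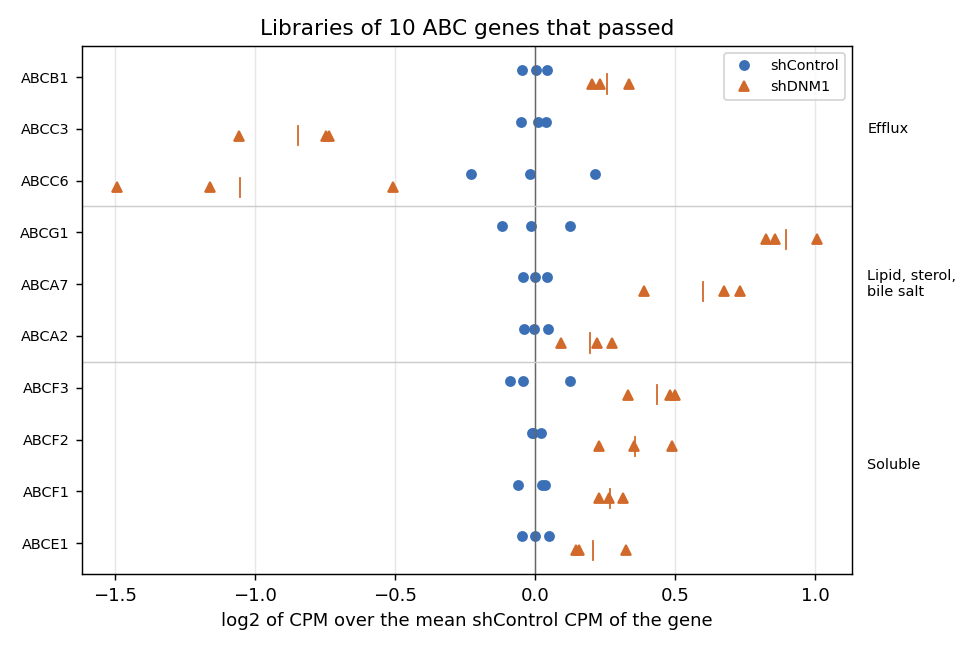
Each library of 10 ABC genes that passed, as log2 of CPM over the mean shControl CPM of the gene (x axis). Circles are shControl and triangles shDNM1, and the short vertical line is the mean of the 3 shDNM1 points. In each of the 10 genes all shDNM1 points lie on 1 side of all shControl points. These genes were picked by the test on the same libraries, and the sets did not overlap for 44.3% of all genes tested.

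The sulfonylurea receptor ABCC9, a regulatory subunit of potassium channels, was the tested member of its kind and had 6.18 ± 0.981 and 5.84 ± 0.899 CPM (adjusted p = 0.782). The 19 untested members had at most 18 counts in a library. ABCB5, ABCB11, the bile salt export pump, and ABCD2 had 0 counts in every library, which allows at most 0.221 to 0.239 CPM in a library (3 counts, for counting error only). ABCC13, ABCA6, ABCA8, ABCA9, ABCA13 and ABCG5 had 1 or 2 counts in all and ABCG8 had 6. ABCG2, ABCA12, ABCA4, ABCG4, ABCC8, ABCA10, ABCC12, ABCB6 and ABCC11 had between 10 and 69 counts in all. ABCC11 overlaps LONP2, an abundant gene, so its reads are uncertain. A difference between the sets was not detectable at this depth for these members.

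**Figure D4:**
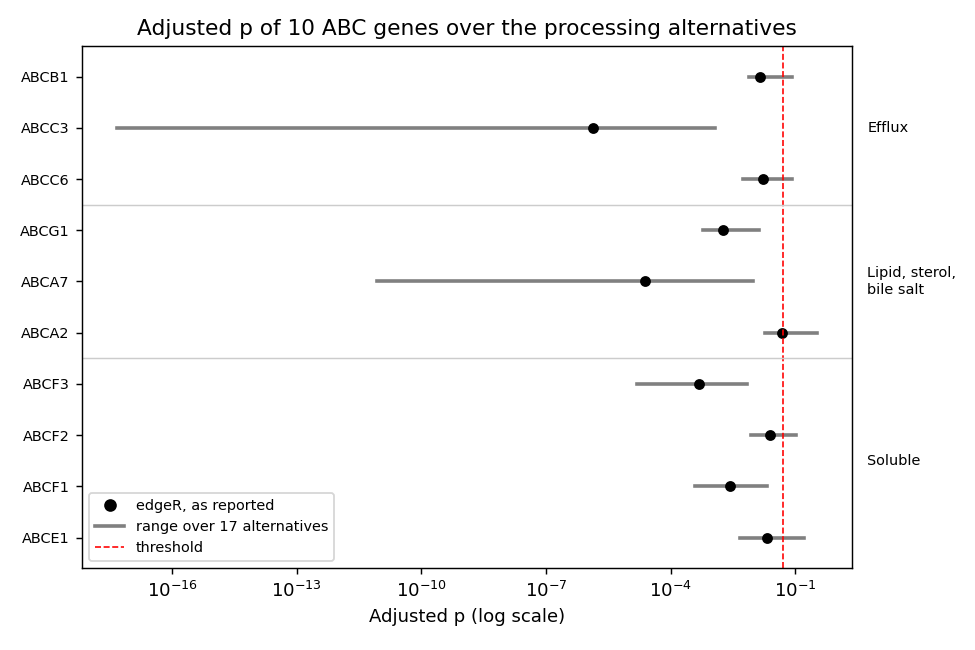
Adjusted p of 10 ABC genes that passed (x axis, log scale), as reported (point) and over the 17 alternatives (grey bar), with the threshold of 0.05 as a dashed line. The bars of ABCC3, ABCA7, ABCG1, ABCF1 and ABCF3 stay left of the line, and ABCA2 reaches 0.331.

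Genes that work with these members were followed through lists of partners and regulators. Over all genes tested 15.6% were called higher and 16.2% lower, and no list was tested as a set. Of the liver X receptor (LXR) and RXR genes and the known targets of LXR, the sterol-sensing nuclear receptors that induce ABCA1 and ABCG1, 5 of 11 rose, 1 fell and 5 did not pass. The receptor gene NR1H2 went from 35.7 ± 0.902 to 54.9 ± 4.27 CPM (SD, n = 3) and was 1.54-fold higher (adjusted p = 1.17e-05). RXRA, its dimer partner, was 1.32-fold higher, and SREBF1, the fatty acid synthesis regulator, 1.31-fold higher. SCD, a fatty acid desaturase, fell to 0.714 of control, and 2 of the list fell without shDNM1 replicate 2 or on the TPM scales. Among 11 tested genes of xenobiotic sensing and the NRF2 response, 2 rose, 5 fell and 4 did not pass. NQO1, a quinone reductase, went from 270.0 ± 20.0 to 180.1 ± 10.2 CPM, and CYP3A5 and PPARA fell to 0.544 and 0.573 of control, whereas the cystine transporter SLC7A11 was 1.44-fold higher. Without any 1 of shControl replicates 1, 2 and 3 or shDNM1 replicates 2 and 3 only 1 of this list rose, as with DESeq2 or with no low-count filter. Without shControl replicate 1 or 3 just 3 of it fell. NR1I2, the pregnane X receptor that induces ABCB1, had 3 counts in all.

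The iron-sulfur and heme genes, partners of the mitochondrial members, split evenly: 5 of 16 rose, 5 fell and 6 did not pass. TMEM14C, a protoporphyrin transporter, fell from 59.8 ± 3.17 CPM to a shDNM1 mean of 23.9 ± 2.61 CPM (log2 fold change -1.32, SE 0.090, adjusted p = 5.57e-09), and FECH, the enzyme that inserts iron into protoporphyrin to make heme, fell to 0.609 of control. GLRX5, a glutaredoxin of cluster assembly, was 1.34-fold and ALAS1, the first enzyme of heme synthesis, 1.33-fold higher. Without shControl replicate 2, 3 of this list fell. The counts are not firm on either side. UROD, 1 of the 5 that rose, lay at the threshold (adjusted p = 0.0498) and lost its call under 12 of 17 alternatives. FDXR, 1 of the 5 that fell (adjusted p = 0.0362), lost its call under 7. Of 13 peroxisomal and cobalamin genes 2 rose, 1 fell and 10 did not pass. Neither share was above that over all genes tested (15.6% higher, 16.2% lower). The import genes PEX5 and PEX3 were 1.35-fold and 1.34-fold higher. SCP2 did not pass, with a fold change of 1.18 and an adjusted p of 0.0586. It passed with RLE scaling (0.0441), with no low-count filter (0.0191), with a replicate block (0.0117) and without shDNM1 replicate 2 (0.0034), and without shDNM1 replicate 1 its log2 fold change was 0.10.

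Of 9 partners of the soluble members in ribosome rescue and in control of initiation, 5 rose, 0 fell and 4 did not pass. EIF2S1, a subunit of initiation factor 2, was 1.41-fold higher at 202 ± 17.6 CPM, the termination factor gene ETF1 1.38-fold at 369 ± 23.5 CPM, its partner GSPT1 1.23-fold and HBS1L 1.22-fold. HBS1L missed the threshold on the TPM scales (adjusted p = 0.0533 and 0.0546). Of the ABC proteins outside the naming pattern TAP1, the peptide transporter of antigen presentation, was 1.22-fold higher (adjusted p = 0.0473), a call lost under 9 of 17 alternatives, where it ranged up to 0.217. These included leaving out shControl replicate 1 or 3 and shDNM1 replicate 3 (0.161, 0.21 and 0.217). TAP2 did not pass, with a log2 fold change of -0.03, and CFTR had 0 counts.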

How the data were processed

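The authors deposited raw gene counts as whole numbers, 1 column per library. Their deposited TPM table was handled as a score, since repeated gene lines push the column sums above what TPM allows. Genome build GRCh38 comes from the submitters' processing notes. For aligner, counter, annotation and strand setting: not given in the sources used here. Of 62710 lines, 2328 shared 453 names with identical values, and each name was kept once.

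Differences were fitted on the counts in edgeR 4.0.16 and R 4.3.3 (filterByExpr, TMM, glmQLFit and glmQLFTest, robust = FALSE, no covariate because batch and group coincide), and p-values were adjusted over all 16744 genes tested. SD is over 3 libraries. The fit was tested on simulated libraries without a batch effect, which cannot gauge the batch that coincides with group here. Alternatives were RLE, upper quartile and library size scaling, no filter or a minimum of 1 CPM in 3 libraries, DESeq2 1.42.0, limma-voom and limma-trend (limma 3.58.1) on log2(TPM + 1) and log2(TPM + 0.1), a robust fit, a threshold of 0.01, the replicate number as a block, and each library left out.

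The members and lists were chosen with earlier results of these data known, so they are not independent of them. Named genes were DNM1, each member that passed, the tested member of each role with the highest mean CPM and that with the largest absolute log2 fold change, untested members, and the 4 smallest p of each list; others were named after their values were seen. The markers fixed for colon epithelium, fibroblasts, leukocytes and endothelium gave the values in the text. Promoter windows came from RefSeq (GRCh38.p14). Of the genes these rules name, 4 are not reported here; counts over the members and lists include them. Figures used matplotlib 3.10.9.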

Additional observations from a re-analysis of the deposited data

How the results depend on the processing

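Of the 458 comparisons of a tested member with an alternative, 416 stayed on the same side of the threshold, 31 lost a call and 11 gained one. Of the 416, 17 changed sign, all in 6 members that did not pass (ABCD3, ABCC2, ABCB9, ABCC10, ABCC1 and ABCC9), and 0 reversed a called direction. At an adjusted p under 0.01, 3503 genes were called (1739 higher, 1764 lower), and 7 members, 5 of them higher. On log2(TPM + 1) and on log2(TPM + 0.1), 5 members were higher in each. Without each library in turn, calls ran from 3990 to 5890 genes (1903 to 2939 higher, 2034 to 2951 lower), from 7 to 13 members (5 to 10 higher, 1 to 4 lower) and from 24 to 32 genes of the related lists, and the DNM1 log2 fold change from -0.20 to -0.037, the former past the threshold. The largest shift of the median of all genes was to -0.07, on the TPM scales. With the replicate number as a block 6080 genes and 13 members were called (9 higher, 4 lower), ABCC4 being added. Deviations of same-numbered libraries correlated at 0.12, 0.08 and -0.04, so the number was not taken as a pairing, and not every library correlated best with its own number. Depth limits members under about 100 counts in all, such as ABCA1.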

Other observations

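The ABC pseudogenes and antisense transcripts were mostly silent. ABCA15P, with 221 counts over all libraries, and ABCA11P, with 77, were the only ones of 17 such genes with enough reads for the test. ABCA15P had a log2 fold change of -0.29 (adjusted p = 0.413). ABCA11P had 18, 25 and 11 counts in shControl and 8, 14 and 1 in shDNM1, a log2 fold change of -1.17 that did not pass (adjusted p = 0.106). ABCA17P, which overlaps ABCA3, had 38 counts in all, and ABCC5-AS1, which lies within ABCC5, had 8.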
